A study of Mus musculus with 8 samples.

Results

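The 9 genes followed here are used to describe how macrophages polarize, and they were read through single cells of 2 mouse pancreatic tumors. They were Chil3, Retnla, Mrc1, Cd163, Nos2, Trem2, Apoe, Spp1 and Gpnmb, chosen by symbol, and each names 1 row among the 27775 gene rows of both count tables. The tumors were pancreatic ductal adenocarcinomas of untreated KPC mice, in which Cre recombinase driven by the Pdx-1 promoter switches on mutant Trp53 beside a further allele in pancreatic cells (LSL-Trp53R172H/+; Pdx-1-Cre), so that the immune cells of the tumor arise outside the cells the promoter drives. One tumor was of medium size and the other was of large size, the age of the mice is not stated, and no tumor-free control was analysed here. Each tumor had 4 technical replicates pooled in 1 table, which leaves 1 sample per size, no replicate spread and no test between sizes.

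The unit throughout is the unique molecular identifier (UMI), which stands for 1 captured mRNA molecule. The medium-size tumor held 20301669 UMIs in 2812 cells with a median of 5456.5 UMIs per cell, and the large-size tumor held 2239012 UMIs in 1533 cells with a median of 1037 UMIs. A cell was called a macrophage when at least 3 of the 5 genes C1qa, C1qb, C1qc, Csf1r and Adgre1 had a UMI and fewer than 5 of 11 epithelial markers did. By this rule 194 cells of the medium-size tumor (6.90%, exact binomial 95% interval 5.99 to 7.90%) and 58 cells of the large-size tumor (3.78%, 2.89 to 4.86%) were macrophages. The 9 other markers of the lineage, which the rule did not use, among them Tyrobp, Lyz2, Cd68 and Cd14, were all at least 2-fold higher in the called cells of both tumors, with ratios from 7.75 to 136 in the medium-size tumor and from 7.93 upward with a median of 16.7 in the large-size tumor. Cells that passed the macrophage rule but carried 5 or more epithelial markers were kept apart as mixed cells. There were 77 of them in the medium-size tumor, with a median of 6768 UMIs against 3516 in macrophages, and 1 in the large-size tumor. Only 5 cell barcodes occurred in both tables, 1 of them a macrophage of the medium-size tumor. The number called moved with depth within the medium-size tumor, from 194 to 96 when its cells were thinned to 500 UMIs each before the call. Of the 58 macrophages of the large-size tumor 48 had exactly 3 call markers and none had all 5, whereas 127 of the 194 in the medium-size tumor had 4 or 5.

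As background, macrophages change their gene program with the signals around them. Interferon-γ and microbial products induce the classical program, in which the inducible nitric oxide synthase Nos2 turns arginine into nitric oxide, whereas interleukin-4 and interleukin-13 act through STAT6 to induce the alternative program, which includes Chil3, Retnla and the mannose receptor Mrc1. Another program, described in tumors, fat and injured tissue, joins the lipid receptor Trem2, the lipid carrier Apoe, the secreted phosphoprotein osteopontin (Spp1) and the lysosomal glycoprotein Gpnmb. In pancreatic cancer macrophages are among the commonest immune cells, and these genes are often used to name their states.

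The stretches just before the transcription start of 3 members are shown because these members behaved differently in the cells, as described after them. They are from RefSeq (GRCm38.p6), 5′ to 3′ on the plus strand, on which all 3 genes lie. Each begins 250 bases before the RefSeq start and stops at or before the start that GENCODE annotates, which for Retnla lies ahead of the RefSeq start. Capitals mark matches to 4 short motifs, which were chosen with the matches in view. Retnla stands for the genes restricted to few cells (chr16:48842359-48842550) and Trem2 for a gene seen in macrophages and in another cell type (chr17:48346151-48346400). Spp1 stands for a gene seen in nearly every cell of the medium-size tumor (chr5:104434861-104435110).
Retnla: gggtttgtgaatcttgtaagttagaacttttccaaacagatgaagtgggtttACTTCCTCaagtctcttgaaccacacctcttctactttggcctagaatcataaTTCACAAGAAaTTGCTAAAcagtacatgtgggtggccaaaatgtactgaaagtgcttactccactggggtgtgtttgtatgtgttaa
Trem2: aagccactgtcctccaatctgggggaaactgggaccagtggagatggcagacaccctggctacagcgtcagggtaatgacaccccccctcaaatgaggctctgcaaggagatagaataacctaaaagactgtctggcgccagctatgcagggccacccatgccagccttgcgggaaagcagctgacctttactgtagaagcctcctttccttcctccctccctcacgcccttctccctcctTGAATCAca
Spp1: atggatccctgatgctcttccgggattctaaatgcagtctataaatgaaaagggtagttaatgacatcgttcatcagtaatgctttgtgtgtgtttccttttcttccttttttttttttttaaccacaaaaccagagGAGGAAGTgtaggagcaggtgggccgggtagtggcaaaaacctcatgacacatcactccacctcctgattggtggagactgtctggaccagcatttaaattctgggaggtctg

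The search covered 250 bases before each RefSeq start, from which positions are counted, on both strands, and 8 of the 9 members had such a window. The palindromic STAT6-type motif TTCNNNNGAA occurred in Retnla alone among them, from base 145 to base 136 before the start, next to a C/EBP-type motif TTGCNNAA from base 134 to base 127 that did not overlap it. A PU.1-type motif GAGGAAGT lay in Retnla on the minus strand, where it is printed as its reverse complement, from base 198 to base 191, and in the printed window of Spp1, from base 113 to base 106. A second window of Spp1, further into the gene, held a C/EBP-type match. An AP-1-type motif TGANTCA, searched with any base in its middle, occurred in Trem2 alone, as TGAATCA from base 9 to base 3. Over all 32851 windows of the table, 5.85% held the STAT6-type motif, 9.56% the C/EBP-type motif, 2.44% the PU.1-type motif and 6.75% the AP-1-type motif. These matches describe letters only and say nothing of binding.

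In the medium-size tumor 6 of the 9 members were at least 2-fold higher in macrophages than in all other cells, namely Chil3, Retnla, Mrc1, Trem2, Apoe and Gpnmb. All other cells means cells that were neither macrophages nor mixed, levels are counts per 1000000 UMIs (CPM) of the summed UMIs of a cell group, and a gene was counted when its ratio was at least 2 and the exact 95% interval of the ratio was above 1. Of all 12631 genes with at least 20 UMIs in both groups together, 9.5% were that much higher and 20.1% were lower by the matching rule. Nos2 and Cd163 had fewer than 20 UMIs and did not enter this count, and Spp1 was the member with the lower level in macrophages. The large-size tumor gave 4 of 9, namely Chil3, Mrc1, Trem2 and Apoe, where 6.43% of 7594 genes were called. Of the other 5 only Spp1 had enough UMIs there, and Retnla, Gpnmb, Cd163 and Nos2 did not enter the count. Trem2 had 9 UMIs in macrophages and 11 in other cells there, so it met the limit of 20 UMIs only with those of the macrophages. With 4 call markers the count of the large-size tumor was 2, Trem2 and Apoe. Intervals here and below cover counting error within the cells of 1 tumor only.

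**Figure D1:**
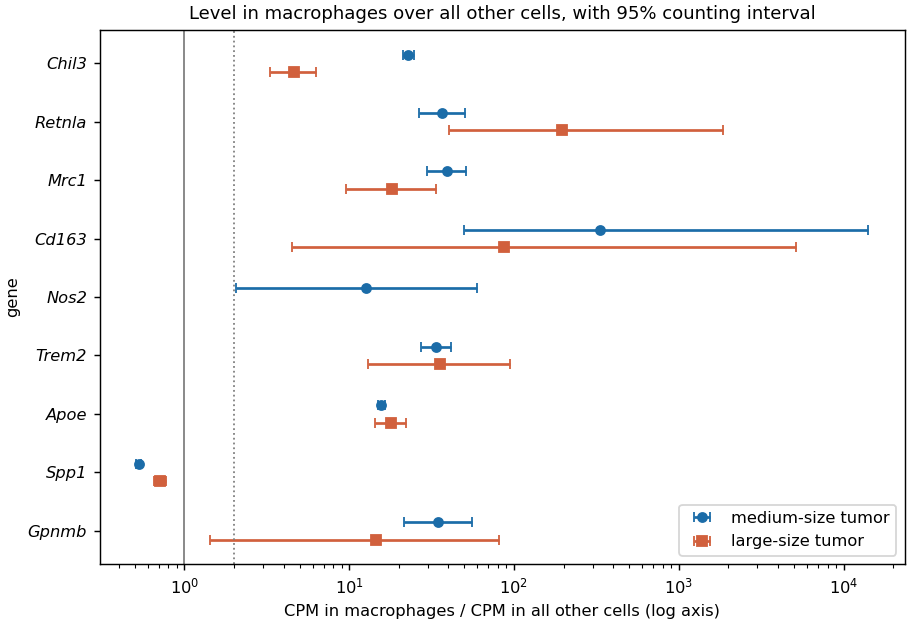
Ratio of the CPM in macrophages to the CPM in all other cells (log axis) for the 9 genes, circles for the medium-size tumor and squares for the large-size tumor, bars for the exact 95% counting interval, solid line at 1 and dotted line at 2. Spp1 lies left of 1 in both tumors, the other plotted genes lie right of it, and Nos2 of the large-size tumor is not drawn because macrophages had 0 UMIs.

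Nos2, the defining gene of the classical program (chr11:78920787-78960254 of GRCm38), was nearly undetected. It had 9 UMIs among macrophages and other cells of the medium-size tumor, 3 of them in 1 macrophage, 3 in endothelial cells and 3 in epithelial cells, so that 1 of 194 macrophages showed it. In the large-size tumor it had 0 UMIs in 58 macrophages, which allows up to 59.5 CPM, and 4 UMIs in other cells. At this depth low Nos2 could not be told from none.

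Among genes that handle arginine, the substrate of Nos2, the arginine transporter Slc7a2 was at 121 CPM in macrophages against 14.1 CPM in other cells. Odc1, which starts the synthesis of polyamines from ornithine, was level between the groups at 210.1 and 210.5 CPM, and Oat, which turns ornithine toward proline and glutamate, was lower in macrophages with a ratio of 0.290 (0.203 to 0.400). Of the 9 genes on this list 7 had enough UMIs, and 1 of them was called higher and 1 lower, counts near the 9.5% and 20.1% of all genes. Their median ratio was 0.831, against 0.692 over all genes tested. Nos1 and Nos3 had 0 UMIs in these macrophages, which allows up to 4.04 CPM.

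Chil3, a secreted chitinase-like protein also called Ym1 (chr3:106147554-106167564), was abundant in sum but uneven over the macrophages. It reached 1881 CPM (1784 to 1983) in macrophages of the medium-size tumor and 82.1 CPM in other cells, a ratio of 22.9 (21.3 to 24.6) that ran from 7.92 to 89.6 under the other ways of calling and comparing the cells. With every cell thinned to 2500 UMIs, so that depth could not set the share, 85 of 194 macrophages had a UMI (43.8%, 36.7 to 51.1%) against 5.21% of epithelial cells, whose median depth was 5942 UMIs against 3516 before thinning. Epithelial Chil3 was itself uneven, with 78 UMIs in 1 cell and 90.1% of its UMIs in the top 10% of cells. Among these macrophages 29 cells had 10 UMIs or more and the highest had 76. Its variance over macrophages was 21.8 times its mean, below the 35.2 times of Apoe and the 43.7 times of Spp1. In the large-size tumor macrophages were at 893 CPM (651 to 1194) and other cells at 193 CPM, a ratio of 4.63 (3.33 to 6.31). Most of the UMIs outside macrophages there came from 140 cells with leukocyte markers that missed the call, described further on, and the ratio against epithelial cells alone was 58.3 (34.3 to 102). Of its close relatives, Chil4 had 0 UMIs in macrophages of the medium-size tumor and 29 in other cells, Chil1 had 1 and 43, and Chil5, Chil6 and Chit1 also had 0 in macrophages.

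Retnla (chr16:48842551-48844461), a secreted resistin-like molecule, was confined to few cells. Its 100 UMIs in macrophages of the medium-size tumor came from 10 of 194 cells, and 75 of them came from 1 cell. The ratio to other cells was 36.4 (26.5 to 50.1) and 9.17 without that cell, and it ran from 4.6 with the call on 500 UMIs to 83.4 with a call of 2 markers. Outside macrophages 30 epithelial cells held 56 UMIs, up to 27 in 1 cell, and 1 smooth muscle or pericyte cell held 11. In the large-size tumor all 9 UMIs of the macrophages sat in 1 cell. Retnlb, its relative in the gut, had 0 UMIs in macrophages of both tumors and in other cells of the medium-size tumor, and 8 UMIs in 4 epithelial cells of the large-size tumor.

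Mrc1 (chr2:14229392-14332057, with the microRNA gene Mir511 inside it on the same strand) was low per cell and broad. Macrophages of the medium-size tumor held 190 CPM (160 to 224) against 4.86 CPM, a ratio of 39.0 (29.8 to 51.3), and 66 of 194 had a UMI after thinning, 5 of them with 3 or more, against 0.905% of epithelial cells. The large-size tumor gave 317 CPM (181 to 515) against 17.4 CPM. Cd163, the scavenger receptor for hemoglobin bound to haptoglobin (chr6:124304656-124330527), was rare. It had 13 UMIs in 10 macrophages of the medium-size tumor and 1 UMI in all other cells together, a ratio of 331 with an interval from 49.7 to 14072, and 2 UMIs in macrophages and 1 elsewhere in the large-size tumor. Macrophages thus took 81.3% of all Cd163 UMIs of the medium-size tumor. Other genes of tissue-resident macrophages were also present in these macrophages, with Pf4 at 1848 CPM, F13a1 at 197 CPM and Folr2 at 55.2 CPM, and 6 of the 11 listed were called higher, Mrc1 among them, where 7 had enough UMIs and 9.5% of all genes were called.

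**Figure D2:**
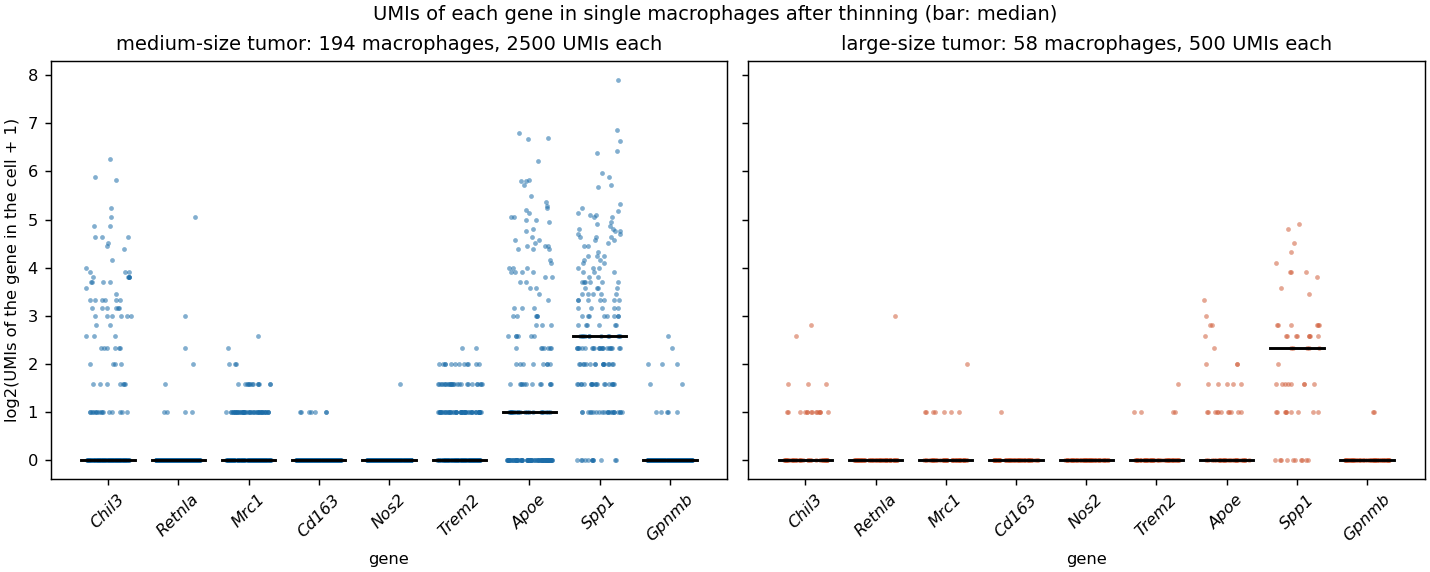
UMIs of each gene in single macrophages (points, log2 of UMIs plus 1) with every cell thinned to 2500 UMIs in the medium-size tumor and to 500 UMIs in the large-size tumor, and the median as a bar. Spp1 is present in most cells, Chil3 and Apoe range from 0 to 76 and 110 UMIs in the medium-size tumor, and Retnla, Cd163, Nos2 and Gpnmb are at 0 in most cells.

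Apoe (chr7:19696109-19699188) was the second most abundant member in macrophages of the medium-size tumor, at 3672 CPM (3536 to 3813) against 235 CPM in other cells, a ratio of 15.6 (14.9 to 16.4). It was uneven. After thinning 80 of 194 macrophages had none, 47 had 10 or more, the highest had 110, and the top 10% of cells held 62.4% of its UMIs. Apoe was also present elsewhere, at 950 CPM in 69 fibroblasts and 718 CPM in 41 mesothelial cells, where macrophages were higher by 3.87 (3.43 to 4.38) and 5.12 times, the lower bound of the second being 4.39. Epithelial cells had 210 CPM in the medium-size tumor and 24.4 CPM in the large-size tumor, a ratio of 0.116 (0.081 to 0.162) between the tumors. Per UMI of the leukocyte genes Tyrobp and Fcer1g, epithelial cells of the medium-size tumor held 3.71 Apoe UMIs and macrophages 0.732, and for Chil3 the figures were 0.681 and 0.375, for Mrc1 0.0694 and 0.0378, for Retnla 0.0556 and 0.0268 and for Trem2 0.0397 and 0.0596. Macrophages were called on 5 other genes, the call markers. Cells with 3 or more of the call markers and 5 or more epithelial markers were set apart as mixed. Both rules sort cells by macrophage genes, so no order between the groups is read from this scale. Among the receptors that bind Apoe, Lrp1 was at 121 CPM in macrophages and 314 CPM in fibroblasts and of the 4 receptors listed 1 was called higher and 1 lower, with a median ratio of 0.440, where 9.5% of all genes were called higher. By the same rule none was called higher in the large-size tumor (0 of the 3 with enough UMIs), where 6.43% of all genes were.

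Trem2 (chr17:48346401-48354147) was found in macrophages and, at the same level, in cells with mesothelial markers. Macrophages of the medium-size tumor held 222 UMIs, or 299 CPM (261 to 341), and 93 of 194 had a UMI after thinning (47.9%, 40.7 to 55.2%) against 0.603% of epithelial cells. The 41 cells whose best-matching class was mesothelial, the lining cells of the body cavity marked by genes such as Msln, Upk3b and Wt1, held 74 UMIs or 305 CPM (240 to 383), and 51.2% of them had a UMI after thinning. The ratio of the groups was 0.979 (0.750 to 1.29). Epithelial cells were at 2.24 CPM, so mesothelial cells were 136 times (91.4 to 205) above them. Fibroblasts lay between, at 68.1 CPM.

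Leukocyte genes were at or near 0 in those mesothelial cells. Tyrobp, the adaptor through which Trem2 signals, stood at 2893 CPM in macrophages and 8.25 CPM, or 2 UMIs, in mesothelial cells. The kinase Syk, which acts after Tyrobp, had 0 UMIs in mesothelial cells and 53.9 CPM in macrophages, and C1qa, Mrc1, Retnla, Gpnmb and Cd163 also had 0 UMIs there. In the 34 mesothelial cells without any UMI of 5 leukocyte genes (Tyrobp, Fcer1g, Aif1, Laptm5 and Ptprc) Trem2 remained at 298 CPM, in those with 5 or more of the 6 mesothelial markers it was 310 CPM, and in the 74 cells of the cluster that held 40 of the 41 it was 235 CPM. These groupings were made after the level had been seen. The large-size tumor had 1 mesothelial cell, with 0 Trem2 UMIs, so no comparison was possible there. In its macrophages Trem2 was at 179 CPM (81.6 to 339) from 9 UMIs, against 5.03 CPM in other cells. Of the 8 genes listed for Trem2 signaling, 7 had enough UMIs and all 7 were called higher in macrophages of the medium-size tumor, Trem2 among them, where 9.5% of all genes were, and the related receptor Trem1 was at 101 CPM against 4.55 CPM.

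**Figure D3:**
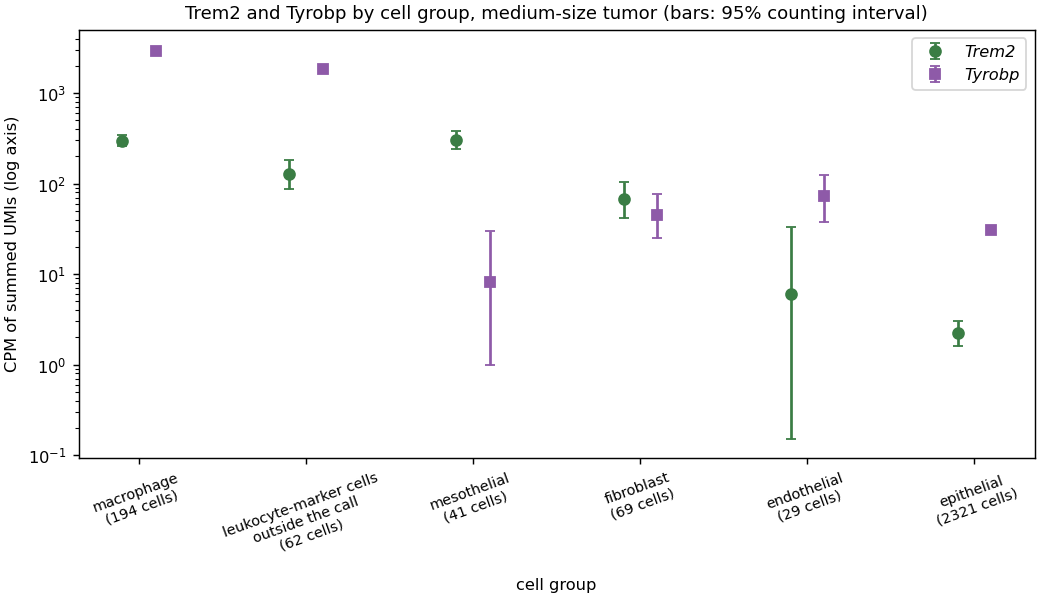
CPM of Trem2 (circles) and of its adaptor Tyrobp (squares) in 6 cell groups of the medium-size tumor, on a log axis with exact 95% counting intervals. Trem2 is at 299 CPM in macrophages and 305 CPM in mesothelial cells, whereas Tyrobp falls from 2893 to 8.25 CPM between the same groups.

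Spp1 (chr5:104435118-104441050, overlapped on the same strand by Gm42793) was the most abundant member in every group, and macrophages were not its main holders. In the medium-size tumor macrophages were at 5292 CPM (5128 to 5460) and epithelial cells at 10382 CPM, a ratio of 0.510 (0.494 to 0.526), and macrophages held 1.97% of all its UMIs. Fibroblasts were at 1993 CPM, mesothelial cells at 2298 CPM and endothelial cells at 3078 CPM, and after thinning 65.9% of mesothelial, 69.0% of endothelial and 82.6% of fibroblast cells had a UMI, against 93.8% of macrophages and 96.9% of epithelial cells. A single Spp1 UMI therefore did not tell the cell groups apart. How many of these UMIs came from RNA outside the cells was not tested. The large-size tumor showed 12617 CPM in macrophages and 16195 CPM in epithelial cells, a ratio of 0.779 (0.719 to 0.843). Against all other cells of that tumor the ratio was 0.711, and it turned to 1.05 with 4 call markers, which left 10 macrophages.

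The ratio of Spp1 to epithelial genes varied among the cell groups. Macrophages were required to show few epithelial markers and epithelial cells were chosen by them, so that no order between those groups is read from this ratio. For each UMI of Epcam and Krt19 together, epithelial cells of the medium-size tumor held 3.65 Spp1 UMIs and macrophages held 37.4 (30.8 to 45.9), and in the large-size tumor the figures were 9.48 and 127 (54.2 to 393), the latter from 5 UMIs of Epcam and Krt19. Endothelial cells held 10.4 (7.79 to 14.3), fibroblasts 8.66 (6.77 to 11.2) and mesothelial cells 2.65 (2.26 to 3.12), and cells with leukocyte markers outside the call, described further on, held 22.5 from 51 UMIs of the epithelial pair. Unassigned cells of the large-size tumor without leukocyte markers held 26.3 (24.1 to 28.8). Within macrophages the thinned counts ran from 0 in 12 cells through a median of 5 to 238 in the highest. Receptors of osteopontin were present in macrophages, with Cd44 at 361 against 553 CPM in other cells and Itgb1 at 218 against 293 CPM, and of the 7 listed Itgb5, Itga4 and Itga9 were called higher, against 9.5% of all genes, whereas Itgb3 had 0 UMIs. The median ratio of the 7 was 0.759, and in the large-size tumor 0 of the 4 with enough UMIs were called higher, where 6.43% of all genes were.

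Gpnmb (chr6:49036546-49070929) was seen in a small set of macrophages and in few cells outside them. In the medium-size tumor 46 UMIs came from 15 of 194 macrophages (61.9 CPM, 45.4 to 82.6) against 34 UMIs in all other cells, a ratio of 34.5 (21.6 to 55.4). Of those 34 UMIs, 17 were in 2321 epithelial cells, at 0.953 CPM, and 3 in fibroblasts, and 14 were in the 62 cells with leukocyte markers outside the call, at 58.2 CPM or 0.939 times (0.477 to 1.74) the macrophage level. The 77 mixed cells held a further 19. The large-size tumor had 2 UMIs in macrophages and 6 elsewhere, too few to place the gene. Lysosomal and lipid genes listed with it were common, with Ctsd at 2176 CPM, 5.10 times its level in other cells, Ctsb at 1417 CPM and Lgals3 at 2199 CPM. Of the 22 genes of this list, 13 were called higher in macrophages of the medium-size tumor, with a median ratio of 2.72 over the 21 that had enough UMIs, against 9.5% and 0.692 over all genes. Trem2, Apoe and Gpnmb were 3 of these 13, and without the members 10 of 17 were called.

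**Figure D4:**
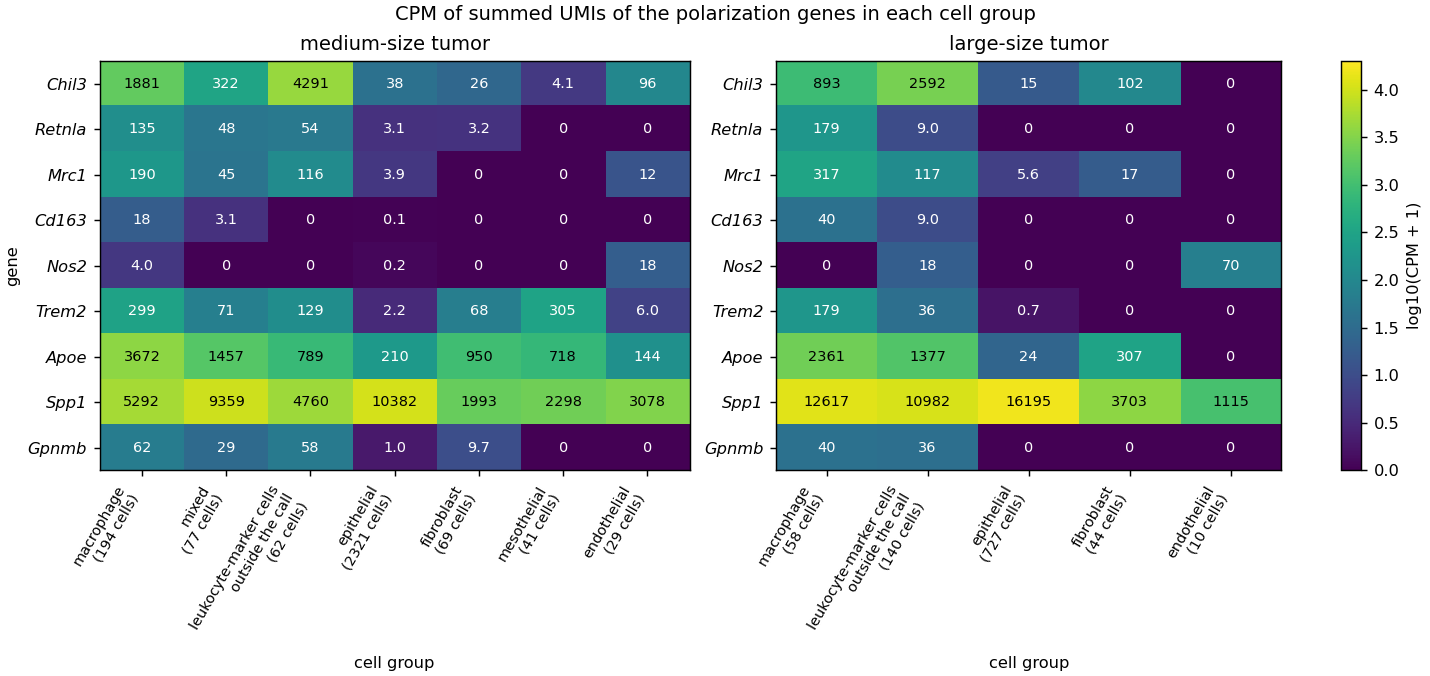
CPM of the summed UMIs of the 9 genes (rows) in each cell group (columns, with the number of cells) of both tumors, colored by log10(CPM + 1) and printed in each field. Of the groups drawn, Chil3 and Mrc1 are highest in the macrophage and leukocyte-marker columns, Trem2 is as high in mesothelial cells as in macrophages, and Spp1 is high in all columns.

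Genes of both the alternative and the classical program were present in the macrophages. Of 20 genes listed for alternative activation, 13 were called higher in macrophages of the medium-size tumor, with Klf4 at 395 CPM, Tgfbi at 366 CPM and a median ratio of 21.9 over 16 genes. Chil3, Retnla and Mrc1 were 3 of these 13. Of 20 genes listed for classical activation, 14 were called higher, with a median ratio of 10.0 over 16 genes. Il1b led them at 1502 CPM against 53.2 CPM in other cells (ratio 28.2, 25.9 to 30.8), seen in 72.2% of macrophages, followed by Il1a at 326 CPM, Tnf at 225 CPM and Cd38 at 215 CPM. The genes at 0 on that list were Il12a, Il12b and Cxcl9. In the large-size tumor 7 of 20 genes of either list were called higher, where only 10 of the alternative and 9 of the classical list had enough UMIs. The share of all genes called was 9.5% and 6.43% in the 2 tumors, and the lists were not tested against each other.

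Of the signals that drive these programs, Ifng, Il4, Il13 and Csf2 were scarce as transcripts. This does not extend to Il34, which had enough UMIs to be compared, and the T cell class held only 2 cells of the medium-size tumor. Ifng had 0 UMIs in macrophages and in all other cells of the medium-size tumor, Il4 had 1 UMI in macrophages, and Il13 had 1 UMI in an epithelial cell. Csf2 had 11 UMIs outside macrophages and 0 in them. Their receptors were better seen, with Csf2rb at 245 CPM and 23.5 times (19.1 to 28.9) its level in other cells, Csf2ra at 82.1 CPM, Ifngr1 at 94.3 CPM and Ifngr2 at 86.2 CPM. Of the 15 genes of this list 11 had enough UMIs, and 4 of them were called higher in macrophages, one of which, Csf1r, had been used to call them, and 1 lower, Il34. Among 13 regulators 6 were called higher, with Cebpb at 351 CPM and Hif1a at 224 CPM, and 1 lower, Pparg, at a ratio of 0.126 (0.026 to 0.371). Over all genes 9.5% were called higher and 20.1% lower, so that 1 lower gene in either list is below the common share.

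Detection of each member was compared in macrophages with and without another member. At 2500 UMIs per cell the median macrophage of the medium-size tumor showed 3 of the 9 members, 3 cells showed 6 and none showed more. For 15 pairs each gene was seen in at least 10 macrophages and missing from at least 10. In all 15 the share of cells with the second gene had overlapping intervals in cells with and without the first, which does not show that detection was independent. Retnla, seen in 9 cells and so below that limit, was found in 5 of 182 cells with Spp1 and in 4 of 12 without it, and these intervals stood apart. Apoe was seen in 62.4% of the 93 macrophages with Trem2 and in 55.4% of the 101 without it. Chil3 and Trem2 were both present in 36 cells, 42.4% of those with Chil3, against 52.3% of those without it. Mrc1 was seen in 36.5% of cells with Chil3 and in 32.1% of cells without it. Gpnmb was seen in 11 of 114 cells with Apoe and in 1 of 80 without it, and these intervals stood apart when mixed cells were counted as macrophages. In the large-size tumor the median macrophage showed 2 members at 500 UMIs, and all 3 comparable pairs overlapped.

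Summed over the 93 macrophages with Trem2, Apoe was at 4916 CPM against 2158 CPM in the 101 without it, a ratio of 2.28 (2.05 to 2.53), with medians of 2 and 1 UMIs per cell. Chil3 was at 1299 against 2349 CPM between the same cells, with medians of 0 and 0 UMIs. Summed over the 114 macrophages with Apoe, Chil3 was at 1253 CPM against 2690 CPM in the 80 without, with medians of 0 and 0.5 UMIs. The 12 macrophages with Gpnmb had Apoe at 12933 CPM against 2857 CPM in the other 182, with medians of 20.5 and 1 UMIs per cell. These sums are taken within 1 tumor and lean on the cells with the most UMIs, so that their counting intervals are too narrow for a difference between cells, since the top 10% of macrophages held 61.4% of the Chil3 UMIs.

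The genes whose counts ran most like each member differed between members. Over 194 macrophages of the medium-size tumor, thinned to 2500 UMIs, and 2700 genes seen in at least 10% of them, Chil3 was nearest to Slpi (0.461), Lrg1 (0.431) and Ms4a8a (0.379). Apoe was nearest to lysosomal genes, Ctsb (0.389), Cd63 (0.381) and Lgmn (0.358). Spp1 was nearest to the protease Ctsl (0.389), and Trem2 to the protease Ctss (0.303). No gene reached 0.3 with Mrc1. These are correlations across cells of 1 library after thinning, given as a description.

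Chil3 was also held by leukocytes that the macrophage call left out. A group chosen after these values had been seen comprised cells with at least 2 of the 5 leukocyte genes Tyrobp, Fcer1g, Aif1, Laptm5 and Ptprc, fewer than 3 call markers and fewer than 5 epithelial markers, 62 in the medium-size tumor and 140 in the large-size tumor. In the medium-size tumor they held Chil3 at 4291 CPM, 2.28 times (2.10 to 2.47) the level in macrophages, in 58.1% of cells after thinning. C1qa, at 58.2 CPM against 3100 CPM, is a call marker, and the choice of the groups fixed its direction. Trem2 was at 129 CPM there, 0.431 times (0.286 to 0.629) the macrophage level, and Apoe at 789 CPM, 0.215 times (0.185 to 0.249). In these cells Chil3 stood above Apoe, whereas in macrophages it stood below it. Across macrophages of the medium-size tumor Apoe was correlated with the call markers C1qc (0.353) and C1qb (0.341). The group was chosen by few call markers, so neither the Apoe ratio nor this order is free of that choice, in either tumor.

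In the large-size tumor the same rule gave cells with Chil3 at 2592 CPM, 2.90 times (2.12 to 4.07) the macrophage level, and with Apoe at 1377 CPM, 0.583 times (0.456 to 0.748) that level. C1qa was at 567 CPM in them against 1964 CPM in macrophages, at a median depth of 680.5 UMIs, so that the group was not free of a call marker. In the cells of the group without any call marker Chil3 was at 4476 CPM in the large-size tumor and 3011 CPM in the medium-size tumor, and in those with at least 3 leukocyte markers it was at 1907 and 5960 CPM, above macrophages each time. The 19 cells of the granulocyte class in the large-size tumor, some of them in this group, held Chil3 at 1442 CPM, with 71.1% of their 38 UMIs in 1 cell. Taking the leukocyte-marker cells out of all other cells moved the Chil3 ratio from 22.9 to 67.6 in the medium-size tumor and from 4.63 to 13.9 in the large-size tumor. Among genes of monocytes, Fn1 was at 3344 CPM, Itgam at 156 CPM and Hp at 154 CPM in macrophages of the medium-size tumor, whereas Plac8 was 0.056 times its level in other cells, and of the 10 listed genes with enough UMIs 8 were called higher, Chil3 among them, and 1 lower, against 9.5% and 20.1% of all genes.

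Between the tumors the macrophages differed by at least 2-fold in 2 of the 9 members. Spp1 was higher in the large-size tumor, at 12617 against 5292 CPM (ratio 2.38, 2.19 to 2.59), and Chil3 was lower, at 893 against 1881 CPM (ratio 0.475, 0.345 to 0.638). Of 4126 genes with at least 20 UMIs, 5.91% were that much higher and 3.51% that much lower in the large-size tumor. Apoe had a ratio of 0.643 (0.530 to 0.773), Mrc1 1.67 (0.930 to 2.81), Trem2 0.597 (0.270 to 1.15) and Retnla 1.33 (0.589 to 2.62). With 4 call markers Mrc1 stood at 0.630 and Trem2 at 1.47. Retnla ran from 0 without the top cell to 6.76 with the call on 500 UMIs. No direction is therefore read for Mrc1, Trem2 and Retnla. Each size is 1 tumor, and the tumors differ in depth, so size, tumor and library cannot be told apart.

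Spp1 was also at a higher level in other cells of the large-size tumor, mostly by less than 2-fold. Leukocyte-marker cells outside the call were 2.31 times (2.13 to 2.50) those of the medium-size tumor and past 2-fold. Epithelial cells of the large-size tumor were 1.56 times (1.54 to 1.58) and fibroblasts 1.86 times (1.58 to 2.17) those of the medium-size tumor, and with all cells at 500 UMIs 82.8% of macrophages (70.6 to 91.4%) had an Spp1 UMI against 61.3% (54.1 to 68.2%). The Chil3 difference was not seen in the share of cells, at 32.8% (21.0 to 46.3%) against 28.9% (22.6 to 35.8%) with 500 UMIs each, and its ratio was 0.998 when macrophages of both tumors were called on cells thinned to 500 UMIs. With mixed cells counted as macrophages it was 0.732 for Chil3 and 1.82 for Spp1. With TMM scaling (trimmed mean of M values), which lowers every ratio by 0.490 on the log2 scale, Chil3, Trem2 and Apoe were the members past 2-fold, and Spp1 stood at 1.70. Over all genes 62.7% of the calls were higher in the large-size tumor by total UMIs and 15.5% by TMM.

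**Figure D5:**
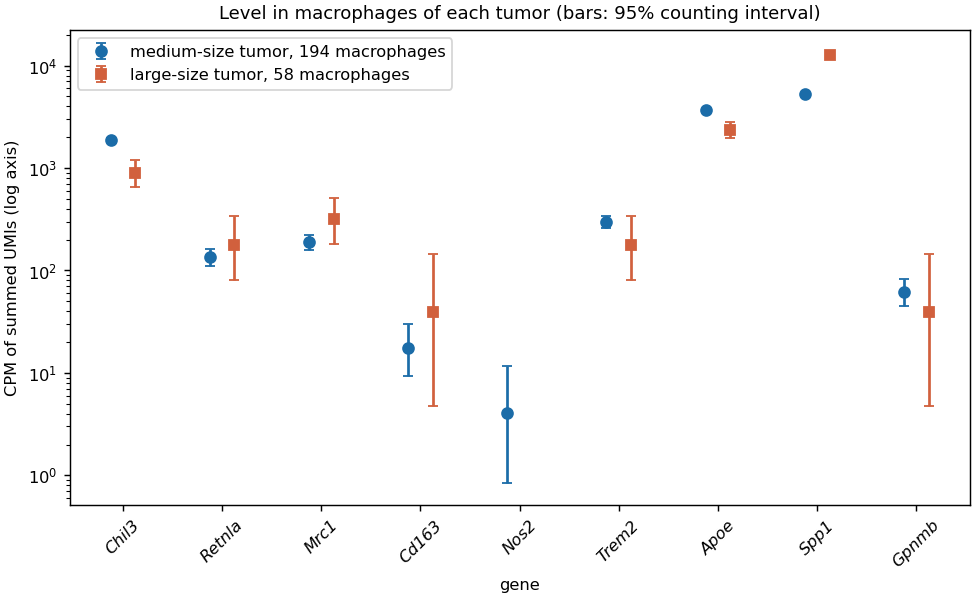
CPM of each gene in the 194 macrophages of the medium-size tumor (circles) and the 58 of the large-size tumor (squares), on a log axis with exact 95% counting intervals. Spp1 is first, Apoe next and Chil3 after it in both tumors, the order of the others differs, Spp1 is higher in the large-size tumor, and Nos2 of the large-size tumor is not drawn because it had 0 UMIs.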

How the data were processed

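Tumors of KPC mice were dissociated, captured with the Chromium 3′ chemistry (v2) and sequenced. The authors made the deposited UMI counts with Cell Ranger, and the submitters' processing notes name mm10. The version and the way cell barcodes were kept are not given in the sources used here. The deposited counts are whole numbers per gene and barcode without normalization, with the 4 technical replicates of a tumor pooled. Genes were taken by symbol, and 2 rows named Itgam were summed.

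The members and gene lists were chosen with earlier results of these data known. Named genes were the 9 members, from each list the 4 highest in macrophages of the medium-size tumor, those at 0 UMIs and the paralogs, and for each member the 3 most correlated genes at a rho of 0.3 or more. Genes named outside this rule (Itga4, Itga9, Ctsb, Hp, Csf2ra, Il34, Il4 and Pparg) were chosen after their values were seen. Some genes of the lists and an allele of the mice are not reported here, and counts leave those genes out.

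Every other cell went to the class whose markers it showed most completely, given 3 or more of them, and 59 cells of the medium-size and 669 of the large-size tumor stayed unassigned. Seurat 5.3.0 clusters (R 4.3.3, 10 components, resolution 0.8) served as an alternative. Doublets were not called, RNA from outside the cells was not estimated, and mixed cells stood apart. UMIs were summed per cell group. Shares have exact binomial, sums exact Poisson and ratios exact conditional binomial intervals, at the 95% level (scipy 1.17.1), and cover counting error only. A count of 0 allows 3 counts. Cells were thinned without replacement to 2500 UMIs (medium) or 500 UMIs (large, and between tumors), which lost no cell. No test between conditions was made, since 1 tumor per size leaves no replicates. The ratio intervals were tested on simulated sums with counting error only, so that spread between cells was not part of that test. The thinning was checked on cells of the medium-size tumor. TMM factors came from edgeR 4.0.16. Positions are from GENCODE M21 (GRCm38, the same build as mm10).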

Additional observations from a re-analysis of the deposited data

How the results depend on the processing

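No paired analysis was possible because the 4 technical replicates of each tumor are pooled in 1 table. The number of macrophages moved with the call. In the medium-size tumor it was 127 with 4 call markers, 271 with mixed cells counted, 238 by clusters and 96 with the call on 500 UMIs, and in the large-size tumor 134 with 2 call markers, 10 with 4 and 39 with the call on 500 UMIs. No cluster of the large-size tumor held at least 50% called cells, so this alternative gave no value there. The 6 members higher in macrophages of the medium-size tumor were the same genes under all 9 alternative groupings and scalings and numbered 6 at 1.5-fold and 4-fold. The 4 of the large-size tumor became 2 with 4 call markers (Trem2 and Apoe), and Trem2 had fewer than 20 UMIs once epithelial cells alone were compared, leukocyte-marker cells were removed or its top macrophage was left out. The pairs detected together more often were 1 with mixed cells counted as macrophages (Apoe with Gpnmb) and 0 under the other 7 alternatives. No member differed 4-fold between the tumors (0 of 9). Those that differed 2-fold were Spp1 and Trem2 with 2 call markers, Chil3, Spp1 and Apoe with 4, 1 gene (Mrc1) with mixed cells counted, Spp1 and Retnla with the call on 500 UMIs, Chil3, Trem2 and Apoe with TMM, Chil3, Spp1 and Retnla by the mean CPM of single cells, and Chil3 and Spp1 without the top cell. By the mean CPM of single cells members were counted on the ratio alone, without an interval, here and in the counts against other cells. All 9 Retnla UMIs in macrophages of the large-size tumor were in 1 cell. Of the members' ratios, 58 of 103 between macrophages and other cells and 20 of 49 between tumors moved beyond the counting interval. Over the alternatives the ratio to other cells in the medium-size tumor ran from 7.92 to 89.6 for Chil3, 4.6 to 83.4 for Retnla, 23.0 to 55.4 for Mrc1, 19.1 to 133 for Trem2, 11.2 to 17.5 for Apoe and 21.7 to 65.0 for Gpnmb, and in the large-size tumor from 2.43 to 58.3 for Chil3, 4.83 to 57.0 for Mrc1, 19.2 to 256.5 for Trem2 and 10.6 to 96.9 for Apoe. Between macrophages and other cells the direction turned for Spp1 in the large-size tumor with 4 call markers (1.05 in place of 0.711). Between the tumors it turned for Mrc1 (0.630 in place of 1.67) and Trem2 (1.47 in place of 0.597) with 4 call markers. It also turned for Retnla (0.589 in place of 1.33) with 2 call markers. The cause of these changes was not tested. Alternatives on leukocyte-marker cells, top cells and mesothelial cells were added after seeing the data.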

Other observations

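Of 14 paralogs of the members, 7 had enough UMIs in the medium-size tumor, 2 of these (Trem1 and Retnlg) were called higher in macrophages, against 9.5% of all genes, and 9 of the 14 had 0 UMIs in macrophages. In the medium-size tumor Chit1, a secreted chitinase, had 43 UMIs and Pmel, a relative of Gpnmb, had 19 UMIs in cells other than macrophages, with 0 UMIs of either in macrophages. Nos3, the endothelial nitric oxide synthase, had 26 UMIs outside macrophages, and Retnlg, a relative of Retnla and a gene of neutrophils, had 15 UMIs in 4 macrophages, 12 of them in 1 cell, at 3.71 times (2.00 to 6.41) its level in other cells, so that this call rests on 1 cell. Retnlg had 0 UMIs in macrophages of the large-size tumor and 53.1 CPM in its other cells.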
